A study of Mus musculus with 4 samples.

Results

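Expression of 10 genes that mark the alveolar type 1 epithelial cell (Ager, Aqp5, Hopx, Pdpn, Rtkn2, Cav1, Clic5, Emp2, Akap5 and Cldn18) was examined in mouse lung RNA-seq. The genes were taken by symbol from a table of 41079 genes, and all 10 were found. The table holds 4 lung libraries, 1 for WT and 1 for Rab44-KO mice, each under normal and OVA-induced conditions. Rab44 is a large Rab GTPase of immune cells, and its role in allergic airway inflammation was the question of the study. In Rab44-KO mice the gene had been disrupted by CRISPR/Cas9 editing in the C57BL/6 strain, and WT mice were littermates. All mice were females of 8 to 14 weeks. The OVA-induced mice of both genotypes were sensitized with 100 μg ovalbumin (OVA) in alum by intraperitoneal injection on days 0, 7 and 14. They then received 100 μg OVA in 50 μL intranasally on 4 days, and lungs were taken on day 21. For normal mice of both genotypes the labels state no treatment, although the protocol text also names PBS. How many mice entered a library is not given in the sources used here.

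Type 1 cells are the thin, flat cells across which oxygen and carbon dioxide pass between air and blood. They cover most of the alveolar surface, share a basement membrane with the capillary endothelium, and can be renewed from type 2 cells, the surfactant-making cells of the alveolus. Their genes serve a receptor at the basal surface (Ager, which encodes RAGE), water and membrane transport (Aqp5, Clic5), tight junctions (Cldn18), membrane organization (Cav1, Emp2, Pdpn), signaling and scaffolding (Akap5, Rtkn2), and nuclear control of differentiation (Hopx). Several are not restricted to this cell type. Cav1 is abundant in endothelial cells, Cldn18 is made by type 2 cells too, and Pdpn also marks lymphatic endothelium.

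Promoter sequence is shown for 5 members, chosen after their values were seen. Ager and Cldn18 were the lowest members in OVA-induced Rab44-KO relative to WT lungs, Cav1 and Akap5 were among those that were higher, and Hopx was the only member with a motif of NKX2-1, a lung epithelial transcription factor, in its windows. Each line gives the 250 bases before a RefSeq transcript start on GRCm38.p6, 5′ to 3′ on the strand of the gene. Capitals mark the motif letters that were searched for on both strands.
Ager, chr17:34597600-34597849, plus strand: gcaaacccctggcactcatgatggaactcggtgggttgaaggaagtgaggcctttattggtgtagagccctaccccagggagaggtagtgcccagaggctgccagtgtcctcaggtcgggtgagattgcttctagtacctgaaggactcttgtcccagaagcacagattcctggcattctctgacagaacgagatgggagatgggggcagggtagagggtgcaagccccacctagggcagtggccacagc
Cldn18, chr9:99717268-99717517, minus strand: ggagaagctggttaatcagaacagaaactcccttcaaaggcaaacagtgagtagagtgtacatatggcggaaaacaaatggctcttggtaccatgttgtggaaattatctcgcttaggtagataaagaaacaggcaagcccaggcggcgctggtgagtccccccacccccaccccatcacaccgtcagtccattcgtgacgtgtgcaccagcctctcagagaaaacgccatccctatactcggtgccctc
Hopx, chr5:77115124-77115373, minus strand: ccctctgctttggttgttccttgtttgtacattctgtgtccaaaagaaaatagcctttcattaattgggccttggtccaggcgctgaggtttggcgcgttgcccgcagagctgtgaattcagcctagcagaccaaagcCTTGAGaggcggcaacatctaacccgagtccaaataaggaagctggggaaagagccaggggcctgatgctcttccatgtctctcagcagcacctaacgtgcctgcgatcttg
Cav1, chr6:17306085-17306334, plus strand: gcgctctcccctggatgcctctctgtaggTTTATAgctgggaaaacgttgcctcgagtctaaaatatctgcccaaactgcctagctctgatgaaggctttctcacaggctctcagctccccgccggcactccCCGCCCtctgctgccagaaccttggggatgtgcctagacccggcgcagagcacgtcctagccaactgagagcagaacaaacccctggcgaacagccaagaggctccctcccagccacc
Akap5, chr12:76324641-76324890, plus strand: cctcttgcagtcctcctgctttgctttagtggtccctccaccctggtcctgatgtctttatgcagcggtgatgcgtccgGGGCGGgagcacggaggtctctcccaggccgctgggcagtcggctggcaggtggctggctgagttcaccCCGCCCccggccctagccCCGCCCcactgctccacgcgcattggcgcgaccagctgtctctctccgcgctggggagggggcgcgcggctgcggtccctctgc
Windows of 300 bases, reaching 50 bases past the start, were matched for 9 of the 10 members, all but Rtkn2, and gave 12 windows. The NKX2-1 core CTCAAG was found in 2 of the 12 windows, both of Hopx, and in 15.9% of all 32851 promoter windows of this length. The GC box GGGCGG was found in 6 of the 12 windows and in 35.7% of all windows. The Hopx line above carries 1 CTCAAG match on the opposite strand, and the Akap5 line carries 3 GC boxes. The TATA box TATAAA was found in 1 member window, that of Cav1, on the opposite strand, and in 13.6% of all windows. The core letters of TEAD factors, GGAATG, were found in 0 of the 12 windows and in 14.7% of all windows. The AP-1 letters TGANTCA were found in 0 of the 12 and in 7.81% of all. These matches describe letters in a window and no binding.

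The counts summed to between 18112901 and 19910236 per library, and 24316 to 25003 genes had at least 1 count. Counts were scaled to library size as CPM by edgeR's TMM factors, which ran from 0.9727 to 1.018, and a log2 fold change (log2FC) is the log2 ratio of CPM. Rab44 itself had 251 (WT) and 1 count (Rab44-KO) in normal lungs, and 810 and 0 counts in OVA-induced lungs. There it was 272-fold lower with the 0 set to a floor of 3 counts, and at least 220.5-fold lower by its exact 95% interval. With 1 library per group no comparison has a replicate check, so no test between conditions was made and no p-value is given. Ranges in parentheses are exact 95% intervals, which cover no more than counting error. The members had between 2101 and 36794 counts in a library, so that counting error was small throughout. In whole lung RNA, fewer cells of a type and less RNA per cell cannot be told apart.

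The alveolar type 1 genes were abundant in all 4 libraries. In normal lungs they took 0.851% of all counts in WT (0.847% to 0.855%) and 0.783% in Rab44-KO (0.779% to 0.787%). In OVA-induced lungs the shares were 0.601% (0.597% to 0.604%) and 0.639% (0.635% to 0.643%). Both OVA-induced libraries therefore held a smaller share than both normal libraries. Levels of different genes were compared only per length, in TPM as deposited, a unit that divides counts by gene length and by their sum. Ager had the highest TPM of the 10 in every library and ranked between 27 and 51 among all genes. In normal WT lungs the order was Ager at 2303 TPM, Hopx at 1071, Cav1 at 954, Emp2 at 914, Cldn18 at 721, Clic5 at 386, Aqp5 at 360, Pdpn at 203, Akap5 at 150 and Rtkn2 at 40.4. Neighbors such as Cav1 and Emp2 changed places between libraries, and with 1 library per group their order has no replicate check. In OVA-induced Rab44-KO lungs Cav1, at 926 TPM, stood above Hopx at 754, and Akap5, at 205, stood above Pdpn at 155. Of the summed TPM of the members, Ager made up 32.4% (WT) and 28.8% (Rab44-KO) in normal lungs and 36.4% and 25.5% in OVA-induced lungs. The place of Rtkn2 rests on its gene model, because the length behind its TPM is 17443 bases while its merged exons in GENCODE M21 span 5547.

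**Figure D1:**
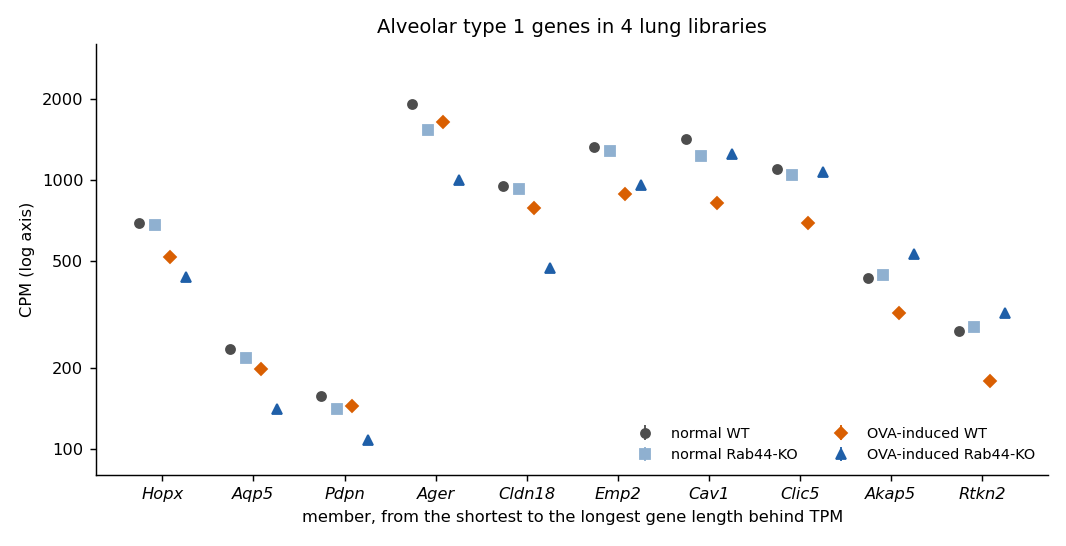
CPM (log axis) of the 10 alveolar type 1 genes in each of the 4 libraries, ordered from the shortest to the longest gene length behind TPM; counting intervals are smaller than the symbols. Ager ran between 997 CPM (OVA-induced Rab44-KO) and 1916 CPM (normal WT), and from Emp2 rightwards the OVA-induced WT library was the lowest of the 4 for every gene, while for the 5 genes to the left the OVA-induced Rab44-KO library was the lowest.

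In WT lungs, every member was lower in the OVA-induced than in the normal library. The log2FC ran from -0.79 (Cav1) to -0.12 (Pdpn) with a median of -0.42, while the median of all 19023 genes tested was 0.0037. Cav1, Clic5 and Rtkn2 were over 1.5-fold lower, which makes 3 of 10 against a background of 12.9% of genes. With the trend of log2FC along gene length (described further on) taken away Cav1 alone of these 3 kept this size, at -0.83. Clic5 then stood at -0.58 and Rtkn2 at -0.33, and Emp2 passed 1.5-fold at -0.64. The trend was read at the length behind TPM, which for Emp2 is 3741 bases against 8644 in merged exons, and for Rtkn2 17443 against 5547. Their values with the trend taken away rest on that choice. Backgrounds are shares of all genes before this subtraction, and none was taken after it. No member was over 1.5-fold higher (background 15.4%) and none was over 2-fold different in either direction (background 14.2%). All 10 were lower in each of the 12 alternative settings. In Rab44-KO lungs, 6 members were lower and 4 higher in the OVA-induced library, with a median of -0.40. Ager, Aqp5, Hopx and Cldn18 were over 1.5-fold lower, 4 of 10 against a background of 10.1%, 0 were over 1.5-fold higher (background 12.9%), and 0 were over 2-fold different (background 10.3%). With the length trend taken away Cldn18 alone of these 4 stayed over 1.5-fold lower. The medians of the OVA-induced over normal difference were thus near each other in the genotypes, but the genes behind them were not ordered alike. Cldn18 differed most in Rab44-KO lungs, at -0.97, and stood at -0.27 in WT, whereas Cav1 differed most in WT lungs and stood at 0.02 in Rab44-KO.

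The difference between the OVA responses, Rab44-KO minus WT, was above 0 for Cav1 (0.81), Rtkn2 (0.78), Clic5 (0.70), Akap5 (0.69) and Emp2 (0.16) on the log2 scale. It was below 0 for Cldn18 (-0.70), Ager (-0.39), Aqp5 (-0.38), Pdpn (-0.27) and Hopx (-0.22). The counting interval left 0 out for all 10, 5 on each side, and the median was -0.03. The members therefore did not shift as a block between genotypes, but parted into 5 that were relatively higher and 5 that were relatively lower. With the length trend taken away 6 were above 0 and 4 below, with a median of 0.17. Cav1 then stood at 0.87 and Cldn18 at -0.63, while Hopx turned to 0.09, and Aqp5 (-0.08) and Pdpn (-0.09) came near 0.

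The same parting was seen between the OVA-induced libraries, which enter these differences too. OVA-induced Rab44-KO over WT lungs gave a log2FC of 0.84 for Rtkn2 (0.78 to 0.90), 0.73 for Akap5 (0.69 to 0.78), 0.63 for Clic5 (0.60 to 0.66) and 0.60 for Cav1 (0.57 to 0.63), each over 1.5-fold higher. Cldn18, at -0.74 (-0.77 to -0.70), and Ager, at -0.72 (-0.74 to -0.69), were over 1.5-fold lower. Between these lay Emp2 at 0.12, Hopx at -0.25, Pdpn at -0.43 and Aqp5 at -0.48. The 4 members over 1.5-fold higher stand against a background of 18.1% of the 19259 genes tested and the 2 lower ones against 17.6%. With the length trend taken away Cav1 alone stayed over 1.5-fold higher and Cldn18 alone over 1.5-fold lower. With the trend of genes over 1000 counts taken away no member was over 1.5-fold lower. For Rtkn2 the trend was read at 17443 bases, against 5547 in merged exons, so its loss of this size rests on the length behind TPM. Among the 5295 genes with at least 1000 counts, which all members exceed, the backgrounds before any subtraction were 13.0% higher and 13.2% lower. No member was over 2-fold different (background 15.7%). The median of the members was -0.07 and that of all genes -0.02, and the former turned to 0.18 with the length trend taken away.

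Under normal conditions the genotypes lay close together. Rab44-KO over WT log2FC ran from -0.32 (Ager) to 0.05 (Rtkn2) with a median of -0.06, against 0.0043 for all 18718 genes tested, and 8 of the 10 members were below 0. Ager was 1.25-fold lower in Rab44-KO (-0.35 to -0.30 on the log2 scale) and Cav1 followed at -0.21. No member was over 1.5-fold lower (background 4.61%), over 1.5-fold higher (6.83%) or over 2-fold different (4.77%). The intervals of Hopx and Rtkn2 include 0. The 4 comparisons share libraries, so their values are not independent of each other.

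**Figure D2:**
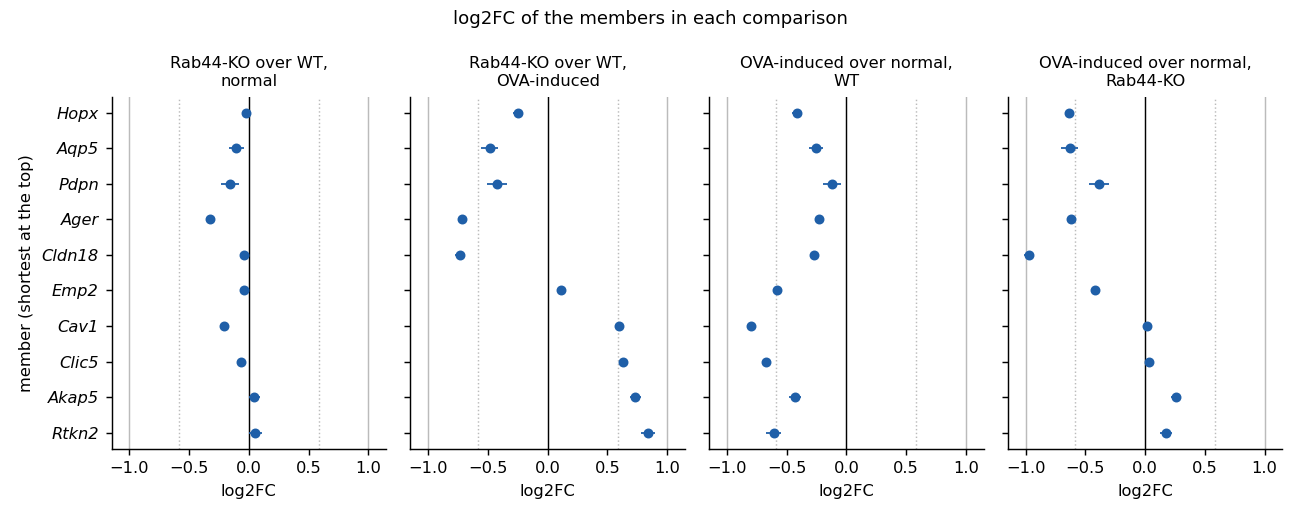
Log2FC of each member (shortest gene at the top) in the 4 comparisons; points are single-library ratios, bars are exact 95% counting intervals, and dotted and solid grey lines mark 1.5-fold and 2-fold. Under OVA-induced conditions the 5 upper genes lie between -0.74 and -0.25 and the 5 lower genes between 0.12 and 0.84, while the normal libraries hold all 10 between -0.32 and 0.05.

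Ager (chromosome 17 of GRCm38, 34597862 to 34600936, plus strand) encodes RAGE, a pattern receptor that type 1 cells carry at high density on their basal side. Its level was 1916 CPM (WT) and 1531 CPM (Rab44-KO) in normal lungs, against 1637 and 997 CPM in OVA-induced lungs. The OVA-induced Rab44-KO library was the lowest, 39.1% below OVA-induced WT. Among the 7 genes listed for ligands of RAGE, the calprotectin subunits S100a8 and S100a9 were far higher in both OVA-induced libraries. S100a8 had 336 (WT) and 367 counts (Rab44-KO) in normal lungs and 2012 and 2693 counts in OVA-induced lungs, and S100a9 had 538, 558, 3461 and 4872. S100a4 was over 2-fold higher in OVA-induced WT lungs, at a log2FC of 1.56, and stood at 0.16 in Rab44-KO. The alarmin gene Hmgb1 stood between -0.32 and -0.18 in the 4 comparisons, and the ligand list had medians of 0.76 (WT) and 0.16 (Rab44-KO) for OVA-induced over normal, or 0.65 and 0.34 with the length trend taken away.

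Cldn18 (chromosome 9, 99689461 to 99717267, minus strand) encodes a claudin, a tight junction protein that seals the alveolar epithelium. WT lungs had 947 CPM in the normal library against 784 CPM in the OVA-induced one, and Rab44-KO lungs had 922 against 470 CPM. The OVA-induced Rab44-KO library stood apart below the other 3, 1.96-fold under its normal counterpart. Of 11 claudins and junction proteins, 2 were over 1.5-fold higher and 1 was over 1.5-fold lower in OVA-induced Rab44-KO relative to WT lungs, near the shares of all genes (18.1% and 17.6%). Their median was -0.10, and 0.22 with the length trend taken away. Tjp1, a scaffold of tight junctions, was over 2-fold higher, at a log2FC of 1.01, whereas Cldn1 stood at -0.86 and the endothelial claudin Cldn5 at -0.10.

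Aqp5 (chromosome 15, 99590782 to 99594829, plus strand) encodes the water channel of the apical membrane of type 1 cells. Normal lungs held 235 CPM of it in WT and 218 CPM in Rab44-KO, and OVA-induced lungs held 197 and 141 CPM. It was again lowest in the OVA-induced Rab44-KO library. The other aquaporins took their own courses. Aqp1, of the capillary endothelium, stood at 0.41 and Aqp4 at 2.08 (79 against 337 counts) in OVA-induced Rab44-KO over WT lungs, while Aqp3 stood at -1.94 (103 against 27) and Aqp9 at -1.66 (207 against 66). The list had a median of -0.25 in this comparison, which turned to 0.14 with the length trend taken away. Aqp5 also belongs to salivary and submucosal glands. Of 8 gland genes, only Amy1 passed the count minimum, and Smr3a, Dcpp1, Dcpp2 and Dcpp3 were at 0 in all libraries.

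Pdpn (chromosome 4, 143267431 to 143299564, minus strand) encodes podoplanin, a surface mucin of type 1 cells and of lymphatic vessels. Its level was 157 CPM (WT) and 141 CPM (Rab44-KO) in normal lungs, against 145 and 108 CPM in OVA-induced lungs. It had the smallest WT difference between OVA-induced and normal lungs of the 10 (-0.12), and the OVA-induced Rab44-KO library was the lowest. The lymphatic marker Lyve1 went the other way in that comparison, with 3122 counts in OVA-induced WT and 7637 in Rab44-KO lungs, and 5 of 6 lymphatic genes were over 1.5-fold higher (median 0.97, background 18.1%), or 3 with the length trend taken away. Their part in the Pdpn value was not tested. Of 6 podoplanin partners, the cytoskeletal linker gene Rdx was over 1.5-fold higher in the Rab44-KO library under OVA-induced conditions (0.64). The tetraspanin gene Cd9 was over 1.5-fold lower (-0.68, or -0.24 with the length trend taken away), and the median was 0.21. These 1 of 6 each way are near the shares of all genes (18.1% and 17.6%). With the length trend taken away 2 were over 1.5-fold higher and 1, not Cd9, was lower.

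Cav1 (chromosome 6, 17306335 to 17341452, plus strand) encodes caveolin-1, the coat protein of caveolae. WT lungs had 1423 CPM in the normal library against 820 CPM in the OVA-induced one, and Rab44-KO lungs had 1228 against 1244 CPM. Here the OVA-induced WT library stood apart below the other 3. The partner gene Cav2 had the same order of the OVA-induced libraries, with 9584, 9084, 5259 and 8650 counts and a log2FC of 0.71 for OVA-induced Rab44-KO over WT. Of the 8 other caveola genes, all were lower in OVA-induced than in normal WT lungs, with a median of -0.45, and Cavin2 was the lowest of them at -0.96. In OVA-induced Rab44-KO over WT lungs 2 were over 1.5-fold higher and 1 over 1.5-fold lower, near the shares of all genes (18.1% and 17.6%), with a median of 0.27, and the coat gene Cavin1 stood at 0.04. Capillary endothelial genes, which share Cav1, had medians of -0.45 for OVA-induced over normal WT lungs and 0.12 for OVA-induced Rab44-KO over WT. These medians were -0.55 and 0.38 with the length trend taken away. In the latter comparison 5 of the 11 were over 1.5-fold higher (background 18.1%), 1 was over 1.5-fold lower (17.6%), and 4 were below 0. The highest was Tek, the angiopoietin receptor gene, with 4905 (WT) and 9947 counts (Rab44-KO) in OVA-induced lungs. The summed CPM of the 11 capillary genes was 5554 (WT) and 5338 (Rab44-KO) in normal lungs and 4153 and 5575 in OVA-induced lungs, with none at 0, and the part of endothelial cells in the Cav1 values was not tested.

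Emp2 (chromosome 16, 10281749 to 10313968, minus strand) encodes a tetraspan membrane protein of the PMP22 family. Normal lungs held 1323 CPM of it in WT and 1284 CPM in Rab44-KO, and OVA-induced lungs held 887 and 961 CPM. Both OVA-induced libraries were below both normal libraries, and the genotypes lay near each other in each condition. Its relatives Emp1 and Pmp22 stood at -0.34 and -0.39 in OVA-induced over normal WT lungs, while Emp3 was over 1.5-fold higher at 0.92. Clic5 (chromosome 17, 44188584 to 44280172, plus strand) encodes a chloride intracellular channel family protein that binds the actin cytoskeleton. Its level was 1097 CPM (WT) and 1045 CPM (Rab44-KO) in normal lungs, against 689 and 1067 CPM in OVA-induced lungs. As with Cav1, OVA-induced WT was the library that stood apart. Of its 4 relatives, Clic6 was over 1.5-fold higher (0.64) and Clic1 over 1.5-fold lower (-0.67) in OVA-induced Rab44-KO than in WT lungs. That makes 1 of 4 each way, against backgrounds of 18.1% and 17.6%. Clic4 stood at 0.49 and Clic3 at -0.53. With the length trend taken away Clic1 stood at -0.24 and Clic3 at -0.18.

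Akap5 (chromosome 12, 76324891 to 76334153, plus strand) encodes an anchoring protein that holds protein kinase A and calcineurin near receptors. WT lungs had 430 CPM in the normal library against 319 CPM in the OVA-induced one, and Rab44-KO lungs had 444 against 530 CPM. It was lowest in OVA-induced WT and highest in OVA-induced Rab44-KO. None of 10 partner genes was over 1.5-fold higher (background 18.1%) or lower (17.6%) in OVA-induced Rab44-KO than in WT lungs. The adenylyl cyclase gene Adcy5 was the lowest partner in OVA-induced over normal WT lungs, at -0.97, and Adrb1, a beta-adrenergic receptor gene, stood at -0.63. Rtkn2 (chromosome 10, 67979570 to 68059740, plus strand) encodes a protein of the rhotekin family. Normal lungs held 273 CPM of it in WT and 283 CPM in Rab44-KO, and OVA-induced lungs held 179 and 320 CPM. It showed the same order as Akap5. Its relative Rtkn stood at -0.29 in OVA-induced Rab44-KO over WT lungs.

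Hopx (chromosome 5, 77086988 to 77115121, minus strand) encodes a homeodomain protein without DNA binding that accompanies type 1 differentiation. Its level was 690 CPM (WT) and 678 CPM (Rab44-KO) in normal lungs, against 518 and 437 CPM in OVA-induced lungs. Both OVA-induced libraries were below both normal ones. In GENCODE M21 its exons share 412 bases with the opposite-strand gene Hopxos, and 16.3% of its 150-base windows are found there. The libraries were made with a directional kit, but the strand setting of the counting is not given in the sources used here, so its counts are uncertain to that extent. Rtkn2 shares 216 exon bases with the opposite-strand gene Gm16212, and no other member shares any. The Hippo pathway, whose effectors YAP and TAZ act in type 1 differentiation, had 15 genes listed. In OVA-induced over normal WT lungs 14 of them were below 0 and 4 were over 1.5-fold lower (background 12.9%), with a median of -0.37, and in Rab44-KO lungs the median was -0.004 with 0 over 1.5-fold higher (background 12.9%) or lower (10.1%). Tead1, a DNA-binding partner of YAP, had 3137 (WT) and 3397 counts (Rab44-KO) in normal lungs and 1778 and 3529 counts in OVA-induced lungs. For OVA-induced over normal, the 10 YAP and TAZ target genes had a median of -0.41 in WT, with 3 over 1.5-fold lower (background 12.9%) and 1 higher (15.4%), or 2 and 0 with the length trend taken away. In Rab44-KO their median was -0.11, with 4 over 1.5-fold lower (background 10.1%) and 4 of 10 above 0. Within the list Ccn1 had 264 (WT) and 435 CPM (Rab44-KO) in normal lungs, against 140 and 175 CPM in OVA-induced lungs. Ccn2 had 201 and 352 CPM in normal lungs, against 149 and 179 CPM. Both thus stood higher in the Rab44-KO library already under normal conditions.

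The 5 members that were lower in OVA-induced Rab44-KO than in WT lungs were also the 5 shortest by the length behind TPM, and the 5 that were higher were the 5 longest. Hopx (1665 bases), Aqp5 (1687), Pdpn (2000), Ager (2151) and Cldn18 (3394) had a median log2FC of -0.48. Emp2 (3741), Cav1 (3858), Clic5 (7340), Akap5 (7433) and Rtkn2 (17443) had a median of 0.63. Genes of all kinds showed a trend of the same sign in this comparison. With genes in 5 bins from the shortest to the longest, the median log2FC went from -0.41 through -0.25, -0.09 and 0.11 to 0.37. Among genes with at least 1000 counts it went from -0.54, where 10.1% were higher in Rab44-KO, to 0.48, where 88.3% were higher. For OVA-induced over normal lungs the trend sloped down in WT, from 0.19 to -0.21, and up in Rab44-KO, from -0.14 to 0.11. Between the normal libraries the bins spanned -0.04 to 0.06. By merged GENCODE M21 exons the members do not part exactly, since Cav1 (3444 bases) is then shorter than Cldn18 (4456).

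**Figure D3:**
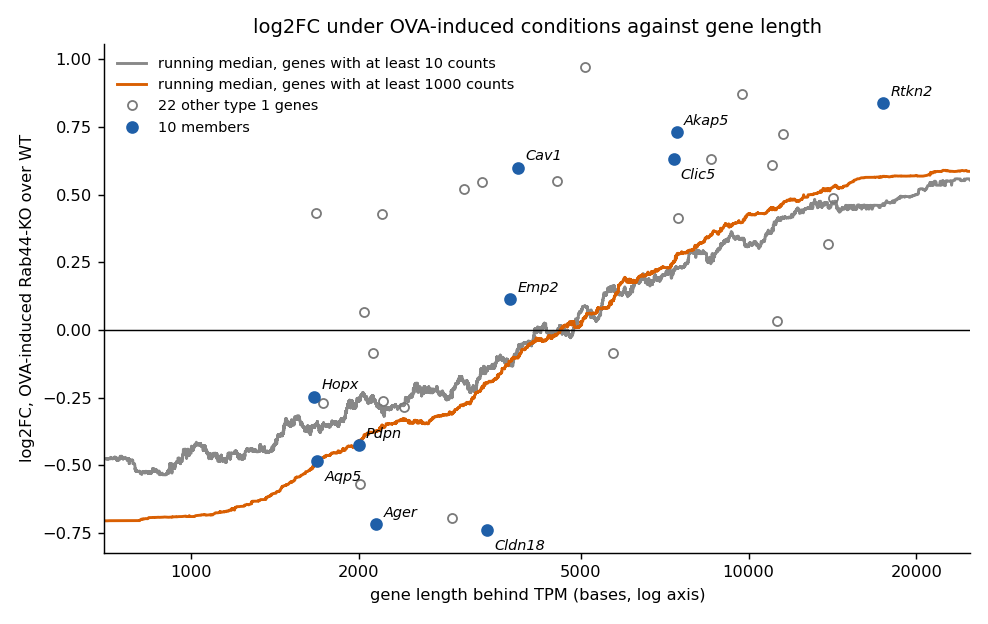
Log2FC of OVA-induced Rab44-KO over WT lungs against gene length behind TPM (bases, log axis) for the 10 members (filled) and 22 other type 1 genes (open), with running medians along length for genes with at least 10 counts (grey) and at least 1000 counts (orange). The members follow the slope of the running medians, with Cldn18, Ager and, narrowly, Pdpn below both lines, and Hopx, Cav1, Emp2, Clic5, Akap5 and Rtkn2 above both.

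With the running median along length taken away, the 5 longer members stayed above 0 in this comparison, with a median of 0.41 and Cav1 highest at 0.67. Of the 5 shorter members 4 stayed below 0 and Hopx moved to 0.11, with a median of -0.17. Cldn18 stood at -0.59 and Ager at -0.44. With the running median of genes over 1000 counts, an alternative added after seeing the data, Cldn18 stood at -0.54, Ager at -0.34, Pdpn at -0.02 and Aqp5 at 0.01, whereas Hopx stood at 0.25. Cav1 then stood at 0.70, Akap5 at 0.45, Clic5 at 0.38, Rtkn2 at 0.27 and Emp2 at 0.23. Aqp5 and Pdpn thus came near 0, while the 5 longer members, Cldn18 and Ager kept their sign with either running median. Both subtractions used the length behind TPM, which is 3741 bases for Emp2 and 17443 for Rtkn2, against 8644 and 5547 in merged exons. A subtraction at merged exon length was not made, so the values of Emp2 and Rtkn2 rest on that choice. The lower level of all 10 members in OVA-induced than in normal WT lungs was also present with either running median taken away. The length trend moves with the parting of the members, and its part in each value beyond these subtractions was not tested. On the TPM scale the median of all genes itself stood at 0.29 in OVA-induced Rab44-KO over WT lungs, at -0.16 for OVA-induced over normal in WT and at 0.11 in Rab44-KO. Relative to that median, Rtkn2 stood at 0.87, Akap5 at 0.77, Hopx at -0.21, Ager at -0.68 and Cldn18 at -0.70 in OVA-induced Rab44-KO over WT lungs.

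**Figure D4:**
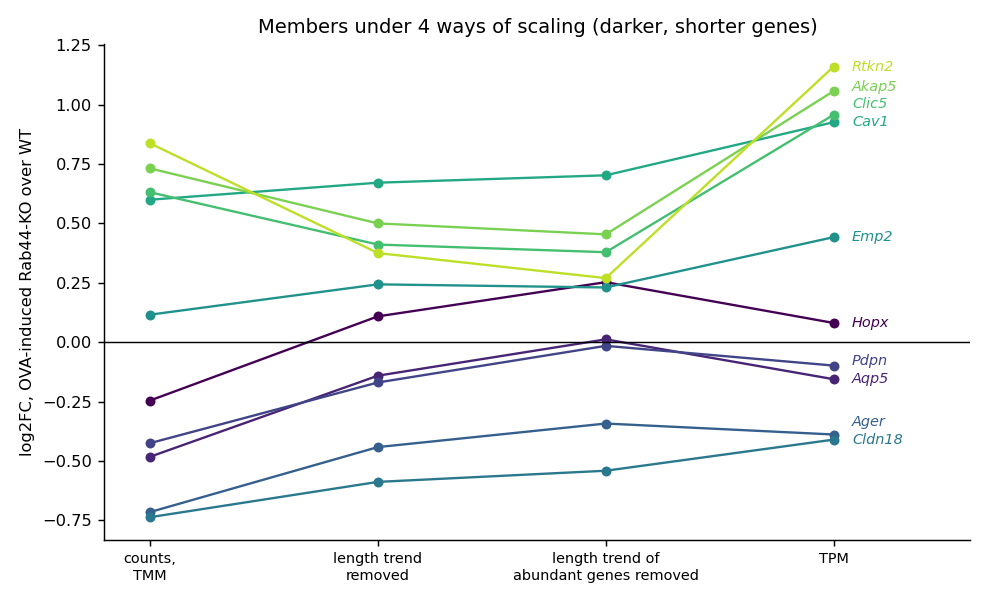
Log2FC of OVA-induced Rab44-KO over WT lungs for each member (lines, darker for shorter genes) under 4 scalings. Cav1 stayed between 0.60 and 0.93 and Cldn18 between -0.74 and -0.41, while Hopx crossed from -0.25 to above 0 in the other 3, of which TPM also moved the median of all genes, to 0.29.

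Of 22 other genes known from type 1 cells, 21 were below 0 in OVA-induced over normal WT lungs, with a median of -0.47. Over 1.5-fold, 9 were lower (background 12.9%) and 1, Egfl6, was higher (15.4%). Col4a3, a chain of the alveolar basement membrane collagen, stood at -0.94, Timp3, a metalloprotease inhibitor, at -0.91, and the vessel growth factor gene Vegfa at -0.77. In Rab44-KO lungs the median was -0.12 with 2 of 22 over 1.5-fold lower and 1 higher, no more than the backgrounds of 10.1% and 12.9%. Igfbp2, a binding protein of insulin-like growth factors, was among the lower ones at -1.23 and was also below 0 in WT at -0.55. In OVA-induced Rab44-KO over WT lungs the median was 0.42, with 5 of 22 over 1.5-fold higher, near the background of 18.1%, and 1 lower (17.6%). Split by length, the 11 longer genes had 10 above 0 and a median of 0.55, and the 11 shorter ones had 5 above 0 and a median of -0.09. These medians were 0.24 and 0.16 with the length trend taken away, both above 0, and that of all 22 was 0.21. The lower level in OVA-induced than in normal WT lungs was present in the other type 1 genes with the trend taken away too, at a median of -0.52.

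Type 2 cell genes went the opposite way in WT lungs. All 11 were above 0 in OVA-induced over normal WT, with a median of 0.56, and 5 were over 1.5-fold higher (background 15.4%). The collectin gene Sftpd had 11435 counts in normal lungs against 26905 in OVA-induced lungs, and Cxcl15, a lung epithelial chemokine gene, had 16218 and 39638. In Rab44-KO lungs the median was 0.10 and 0 were over 1.5-fold higher (background 12.9%) or lower (10.1%). With the length trend taken away 4 were over 1.5-fold higher in WT and 2, Sftpd and Cxcl15, in Rab44-KO. The share of all genes after this subtraction was not taken, so these counts have no background. Their summed CPM was 23020 (WT) and 23280 (Rab44-KO) in normal lungs and 34480 and 21230 in OVA-induced lungs. Sftpc, the surfactant protein gene that defines type 2 cells, had 262219 (WT) and 237887 counts (Rab44-KO) in normal lungs and 361981 and 181126 counts in OVA-induced lungs. It was over 2-fold lower in OVA-induced Rab44-KO than in WT (-1.01, or -0.49 with the length trend taken away), the same direction as Cldn18, which type 2 cells share, and the part of type 2 cells in the Cldn18 value was not tested. Genes of the transitional state between type 2 and type 1 cells stood at medians of 0.03 (WT) and -0.16 (Rab44-KO) for OVA-induced over normal, or -0.08 and -0.03 with the length trend taken away. Within that list Krt8, a keratin of this state, stood at -0.16 and -0.18, while Cdkn1a, the cell cycle inhibitor p21, had 437, 564, 1609 and 6217 counts in the same 4 libraries and Lgals3, a lectin also made by macrophages, had 2483, 1798, 7321 and 2392. General epithelial genes stood close to 0, at medians of -0.17 (WT) and -0.09 (Rab44-KO), and so did the cadherin gene Cdh1 at 0.04 and 0.08.

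**Figure D5:**
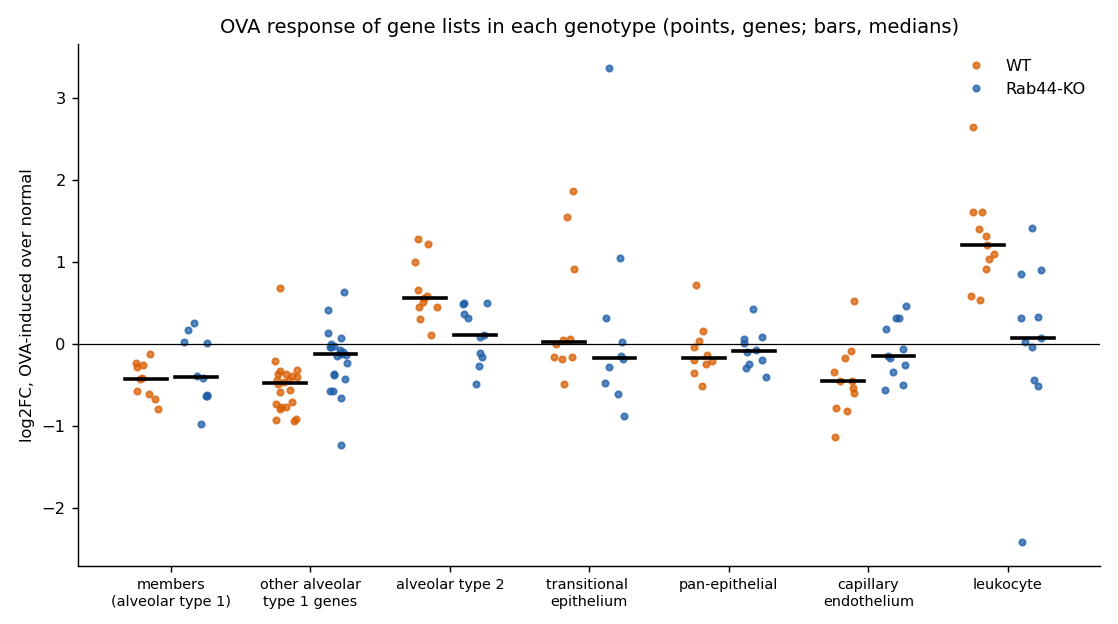
Log2FC of OVA-induced over normal lungs in WT (orange) and Rab44-KO (blue) for 7 gene lists; points are genes and bars are medians. The members had medians of -0.42 and -0.40, type 2 genes 0.56 and 0.10, and leukocyte genes 1.20 and 0.07.

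Genes of cells outside the alveolar epithelium also moved with these comparisons. Leukocyte genes were above 0 for all 11 in OVA-induced over normal WT lungs (summed CPM 404 to 862) and 10 were over 1.5-fold higher (background 15.4%). In Rab44-KO lungs 7 of the 11 were above 0 and 4 below, with a median of 0.07. There 3 were over 1.5-fold higher (background 12.9%) and 1 was over 1.5-fold lower (10.1%), and the summed CPM was 442 under normal and 618 under OVA-induced conditions. Heart muscle genes, 8 in all and none at 0, were 7 of 8 over 1.5-fold lower (background 12.9%) in OVA-induced than in normal WT lungs, and their summed CPM was 767 (WT) and 848 (Rab44-KO) in normal lungs and 337 and 758 in OVA-induced lungs. The OVA-induced WT library was thus low in heart muscle RNA, as it was in the longer type 1 genes. Lymphatic genes had summed CPM of 509, 550, 321 and 585 in the same order of libraries. Mesothelial genes had summed CPM of 95.3, 159, 206 and 202. Fibroblast genes had 1796, 1904, 2076 and 1681. In OVA-induced over normal WT lungs 5 of these 8 were below 0, with a median of -0.16, while Col3a1 had 354 CPM in normal and 679 in OVA-induced WT lungs. In OVA-induced Rab44-KO over WT lungs 4 were over 1.5-fold lower (background 17.6%) and 1 was higher (18.1%). Club and ciliated cell genes had 26410, 26760, 18570 and 21380, of which Scgb1a1 alone held 22960, 22510, 16550 and 18290. No gene of these 6 lists was at 0 in all libraries, and their part in the type 1 values was not tested.

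The 5 genes outside the list whose 4 log2 CPM values, each centered on its mean, lay nearest to the mean of the members were Rlig1, Gm32262, Cox6b2, Sec62 and Spindoc, at distances of 0.025 to 0.040 among 12304 genes with at least 100 counts in every library. Sec62 had 5695 (WT) and 5135 counts (Rab44-KO) in normal lungs and 4372 and 4363 counts in OVA-induced lungs, lower in both OVA-induced libraries. The members themselves lay farther from their own mean, between 0.139 for Emp2 and 0.601 for Rtkn2. Emp2 was the member most like the average of the 10, and Rtkn2, Cldn18 and Akap5 were the least like it.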

How the data were processed

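Lung RNA was sequenced in 4 libraries, 1 per group, and grouped by GEO's labels. The authors prepared libraries with a directional kit, sequenced both ends of fragments for 150 bases, and, after trimming and HISAT2 alignment on GRCm38, deposited raw counts per gene from featureCounts, along with TPM. Tool versions, strand setting and treatment of reads with more than 1 match are not given in the sources used here. In the deposited table, TPM equals the counts divided by 1 length per gene and rescaled by 1 factor per library (15583 genes with over 20 counts in every library), which gave the length behind TPM. It was scaled to merged exons of GENCODE M21 (Spearman correlation 0.739 over 14273 genes). Positions are from GENCODE M21 on GRCm38, because 0 of the 10 members start where the deposited table places them, and promoters are from RefSeq. The authors named DESeq2 for their own comparisons, whose results were not used here.

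Counts were scaled by TMM in edgeR 4.0.16 (R 4.3.3), and log2FC was taken with a prior count of 0.125 where the higher library held at least 10 counts of a gene. A difference over 2-fold (log2FC 1) or over 1.5-fold (log2FC 0.585) was counted without a test. Intervals are Clopper-Pearson for ratios and shares, and cover counting error only. A 0 was set to a floor of 3 counts. The length trend was a running median over 501 genes, read at the length behind TPM. Background shares of all genes were taken before its subtraction only, so counts of genes after it have no background. Alternatives were DESeq2 1.42.0 size factors, total counts, TMM on the compared libraries or without immunoglobulin genes, a prior count of 2, TPM with pseudocounts of 0.1 and 1, thinned counts, count minimums of 1 and 100, and the length trend removed. Python 3.11.15, numpy 2.4.6, pandas 2.3.3, scipy 1.17.1 and matplotlib 3.10.9 were used, and the steps were tested on simulated counts.

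The members, the 23 other lists and the alternatives were chosen with earlier results of these data known, and 1 of these lists is not reported here. All members are named. Of other lists, genes were named by the 3 highest mean CPM and the 3 largest log2FC with at least 100 counts, and lists of up to 8 genes could be named whole. Also named are Rab44 and the 5 genes nearest to the mean profile of the members.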

Additional observations from a re-analysis of the deposited data

Results flagged for a closer look

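The OVA-induced over normal log2FC had opposite signs in the genotypes, with both counting intervals off 0, for 3 members. These were Rtkn2 (-0.61 in WT, 0.18 in Rab44-KO, 0.78 apart), Clic5 (-0.67 and 0.03, 0.70 apart) and Akap5 (-0.43 and 0.26, 0.69 apart). Likewise the Rab44-KO over WT log2FC had opposite signs in normal and OVA-induced lungs for Cav1 (-0.21 and 0.60, 0.81 apart), Clic5 (-0.07 and 0.63, 0.70 apart) and Emp2 (-0.04 and 0.12, 0.16 apart). With 1 library per group these differences were not tested. The 5 genes named here are the 5 longest members by the length behind TPM. Cldn18, a shorter member, had a difference of -0.70 without opposite signs. For Rtkn2 the Rab44-KO value fell to 0.05 with the length trend removed. It fell to 0.0073 with that of abundant genes removed, and both are less than its counting error. Its difference between the genotypes fell to 0.38 with the length trend removed. These Rtkn2 values, and the Emp2 value below, rest on the length behind TPM, 17443 and 3741 bases against 5547 and 8644 in merged exons. The opposite signs were lost for Clic5 between the genotypes, whose Rab44-KO value turned to -0.05 with the length trend removed and to -0.07 with that of abundant genes removed, and for Emp2, whose normal value turned to 0.0093 with the latter.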

How the results depend on the processing

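No paired analysis was made. Each group holds 1 library, so no replicate could be left out. DESeq2 size factors, TMM on the compared libraries or without immunoglobulin genes, a prior count of 2, thinned counts and other count minimums moved no median of the members beyond its counting error and no count beyond 1.5 times. TPM with a pseudocount of 0.1 or 1 and the removal of length trends moved them. The median log2FC of OVA-induced Rab44-KO over WT lungs was -0.07 and became 0.0011 with total counts, 0.26 with either TPM setting, 0.18 with the length trend removed and 0.24 with that of abundant genes removed. The median difference of the OVA responses was -0.03 and became 0.027 with total counts, 0.27 with either TPM setting, 0.17 with the length trend removed and 0.19 with that of abundant genes removed. For OVA-induced over normal, the WT median of -0.42 became -0.60 and -0.59 with TPM and -0.37 with the length trend removed, and the Rab44-KO median of -0.40 became -0.28 with TPM and -0.30 with the trend of abundant genes removed. The latter moved the normal Rab44-KO over WT median from -0.06 to -0.015. Counts over 1.5-fold changed from 4 to 1 higher in OVA-induced Rab44-KO over WT with either trend removed, and from 2 lower to 1 with the length trend and to 0 with TPM or the trend of abundant genes. For OVA-induced over normal they changed from 3 to 6 lower in WT with TPM, and from 4 to 1 lower in Rab44-KO with TPM or either trend. No share of all genes over 1.5-fold was taken under TPM or with a trend removed. Over 2-fold, 0 became 2 in OVA-induced Rab44-KO over WT with TPM (Rtkn2 and Akap5). TPM adds 1 constant per comparison to the log2FC. Relative to the median of all genes under TPM, 4 members were over 1.5-fold lower for OVA-induced over normal in each genotype, 4 were higher and 2 lower in OVA-induced Rab44-KO over WT, 0 were over 2-fold different there, and Hopx stood at -0.21. The cause of the length trend was not tested. In OVA-induced Rab44-KO over WT, Hopx changed sign with TPM and with either trend removed and Aqp5 with that of abundant genes. In other comparisons signs changed for Clic5 (OVA-induced over normal in Rab44-KO) and, between normal libraries, for Hopx, Rtkn2, Akap5, Emp2 and Cldn18, all with values within 0.1 of 0. Of the values of single members over all settings, 336 moved by less than counting error and 144 by more. The 336 include every value under the count minimums, which could not move. Depth does not limit the members, whose lowest count was 2101.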
